A study of Homo sapiens with 6 samples.

Results

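The thioredoxin and peroxiredoxin genes were followed in NB4 cells after 6 h of arsenic trioxide. NB4 is a cell line from a human acute promyelocytic leukaemia with the PML-RARA fusion, and arsenic trioxide (ATO), a drug for this leukaemia, is an arsenical that binds protein thiols. The study has 2 groups of 3 libraries, NB4 cells given ATO for 6 h and control NB4 cells. The labels give neither the dose nor whether replicates were separate cultures, so the p-values weigh differences against library spread alone, which may be technical. The 10 genes were chosen by symbol from the 23858 deposited genes: thioredoxin (TXN), thioredoxin reductase 1 (TXNRD1), sulfiredoxin (SRXN1), the thioredoxin-interacting protein (TXNIP) and the peroxiredoxins PRDX1 to PRDX6. All 10 were found, each in 1 row.

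Thioredoxin is a small protein that reduces disulfide bonds in other proteins through a pair of cysteines, and thioredoxin reductase restores it with electrons from NADPH. Peroxiredoxins are abundant enzymes that break down hydrogen peroxide, and most of them depend on thioredoxin for their own reduction. Sulfiredoxin repairs peroxiredoxins whose cysteine has been overoxidised, and TXNIP binds thioredoxin and inhibits it. TXN, TXNRD1, SRXN1 and PRDX1 are known targets of NRF2, the transcription factor that answers oxidants and thiol-reactive agents.

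Expression was given as RPKM, the reads of a gene scaled to its exon length and to the depth of its library. The libraries held 21185965 to 22300255 reads in the ATO group and 19361333 to 22609019 in the control group. Across the tested genes, which are not independent replicates, libraries of a group had a Pearson's r of 0.965 to 0.973 in log2(RPKM + 1), and libraries of different groups 0.919 to 0.935. ATO replicate 3 and control replicate 1 lay apart from the other 4 libraries on the second principal component, which held 15.2% of the variance. Promyelocyte granule and surface markers (MPO, AZU1, PRTN3, CTSG and CD33) summed to 666 to 1006 RPKM in the ATO libraries and 998 to 1389 RPKM in the control libraries. CD3D of T cells was at 3.04 to 4.22 RPKM in ATO libraries and 3.22 to 3.76 in controls, and EPCAM of epithelium at 4.50 to 6.72 RPKM in ATO libraries and 4.82 to 6.09 in controls. CD79A of B cells was at 1.03 to 1.40 RPKM in ATO libraries and 0.653 to 1.15 RPKM in controls. AZU1 was called lower, and the part of the lower granule markers in the results below was not tested. ELANE, CD3E, MS4A1, COL1A1, COL1A2 and the erythroid marker HBB have no row under these symbols among the listed genes. In bulk RNA, fewer cells of a type and less RNA per cell cannot be told apart.

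The reductase and the inhibitor rose after ATO while thioredoxin itself was at 1.01-fold of its control mean, and of the 6 peroxiredoxins PRDX1 and PRDX5 rose. TXNRD1 was 2.0-fold higher in the ratio of means, TXNIP was 1.70-fold higher, PRDX1 1.31-fold and PRDX5 1.23-fold. SRXN1, whose row shares most of its exon bases with another gene, was listed too low to be tested. Of the 9 genes tested with limma on log2(RPKM + 1), 4 were called higher and 0 lower at a Benjamini-Hochberg adjusted p under 0.05. Among all 16803 tested genes 12.0% were called higher and 13.4% lower, 25.4% in either direction. The ATO libraries lay wholly above the controls for those 4 genes and wholly below them for PRDX3 and PRDX4, where 21.9% and 22.6% of tested genes did so. The median log2 fold change was 0.17 over the 9 genes and -0.0033 over all tested genes.

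**Figure D1:**
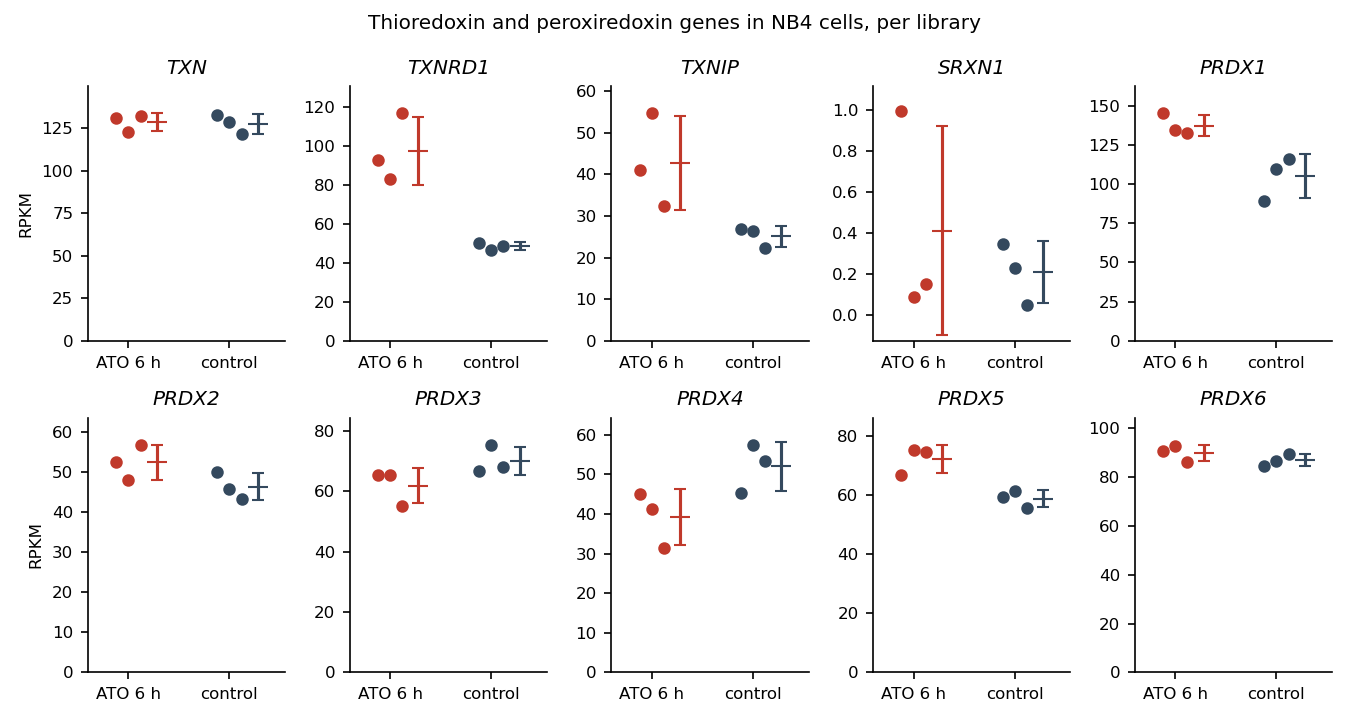
RPKM of the 10 genes in each library, with ATO libraries in red and control libraries in dark blue, and the mean ± SD beside the points (n = 3 each). TXNRD1, TXNIP, PRDX1 and PRDX5 have all ATO points above all control points, PRDX3 and PRDX4 have all of them below, and SRXN1 lies at or under 1 RPKM with 1 high ATO library.

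TXN (chromosome 9, 110243811 to 110256640, GRCh38), the cytosolic thioredoxin, had the highest mean RPKM of the 10 genes in control cells, above 99.2% of the listed genes. It stood at 131, 123 and 132 RPKM in ATO replicates 1, 2 and 3, against 133, 129 and 121 RPKM in control replicates 1, 2 and 3. The groups overlapped throughout. The log2 fold change was 0.01, with a 95% interval of -0.13 to 0.15 (limma adjusted p = 0.909).

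TXNRD1 (chromosome 12, 104215779 to 104350305) encodes the cytosolic reductase, a selenoprotein whose selenocysteine near its end is the residue that passes electrons to thioredoxin. It was at 92.8, 82.9 and 117 RPKM in ATO replicates 1, 2 and 3, against 50.5, 46.9 and 48.9 RPKM in the control replicates. Every ATO library lay well above the highest control, and the ATO libraries differed more among themselves (97.5 ± 17.5 RPKM) than the controls did (48.7 ± 1.80 RPKM, SD, n = 3 each). The log2 fold change was 0.97 ± 0.12 (SE, limma adjusted p = 0.00248). The call held in all 13 other settings tried, with adjusted p from 1.63e-05 to 0.0128 and log2 fold changes from 0.84 to 1.08. Per library the ratio of TXNRD1 to TXN was 0.707, 0.676 and 0.886 in ATO cells, against 0.380, 0.364 and 0.403 in control cells. The ratio was 1.97-fold higher after ATO and the groups did not overlap. The exact two-sided permutation test gave p = 0.1, the smallest that 3 against 3 allows (adjusted p = 0.2 over 4 ratios). TXN was at 1.01-fold of its control mean, so the ratio is not a separate result from the rise of TXNRD1.

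The rule used no sequence, so the promoters of the members were searched for the core of the antioxidant response element, the site through which NRF2 acts, written TGACNNNGC and read on both strands. RefSeq (GRCh38.p14) gave 11 start sites for 8 of the 10 genes, and 250 bases before each were searched. The core occurs in 10.9% of the 35116 start sites RefSeq gives. PRDX1 and PRDX6 were not searched. Among the 8 genes searched only the 2 start sites of TXNRD1 hold the core, so these are shown, with the core in capitals. The first window, chr12:104215529-104215778 on the plus strand, ends at the base before the annotated gene. The second, chr12:104286920-104286949 on the plus strand, is limited to 30 bases because it lies in an annotated exon of another TXNRD1 transcript, and it holds the core on the opposite strand (TGACAAAGC). The cores begin 99 and 102 bases before their starts. A match describes letters, not binding, and no match says only that these letters are not in the window.
TXNRD1 upstream start: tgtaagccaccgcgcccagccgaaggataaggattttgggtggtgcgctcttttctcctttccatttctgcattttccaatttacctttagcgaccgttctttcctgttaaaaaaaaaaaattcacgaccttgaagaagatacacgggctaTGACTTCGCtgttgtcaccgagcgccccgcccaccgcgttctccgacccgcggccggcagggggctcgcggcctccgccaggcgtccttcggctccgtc
TXNRD1 internal start: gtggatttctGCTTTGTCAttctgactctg

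Within the span of TXNRD1 the annotation places 3 other listed genes, none of which shares an exon base with it. EID3, a gene without introns on the same strand (chromosome 12, 104303739 to 104305205), rose after ATO, as its host did. It was at 18.6, 15.5 and 21.0 RPKM in ATO cells, against 7.56, 8.27 and 7.12 RPKM in control cells (log2 fold change 1.15 ± 0.12 SE, limma adjusted p = 0.00135). In the ATO group EID3, like TXNRD1, was highest in replicate 3 and lowest in replicate 2. The controls differed: in replicate 2 EID3 was at its highest (8.27 RPKM) and TXNRD1 at its lowest (46.9 RPKM). The pseudogene RPL18AP3, in the same host, was at 2.46 ± 0.417 RPKM in ATO cells and 2.47 ± 0.811 RPKM in controls (SD, n = 3 each). The libraries were made from total RNA after ribosomal depletion, and reads of unspliced TXNRD1 RNA and of EID3 itself cannot be told apart.

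TXNIP (chromosome 1, 145992435 to 145996600) belongs to the alpha-arrestins and, besides binding thioredoxin, restrains glucose uptake. It was at 41.0, 54.7 and 32.4 RPKM in ATO replicates 1, 2 and 3, against 26.8, 26.4 and 22.3 RPKM in control replicates. All ATO libraries were above all controls, with a wide spread in which replicate 2 was highest and replicate 3 lowest. The log2 fold change was 0.71 ± 0.18 (SE, limma adjusted p = 0.0273). The call was lost without ATO replicate 1 (adjusted p = 0.07) and without control replicate 1 (0.0557), 2 (0.0615) or 3 (0.0802). Over the 13 settings the adjusted p ran from 0.00254 to 0.0802. In the fits that lost the call the log2 fold change was 0.63 to 0.76. It was smallest, 0.52, without ATO replicate 2, where the call held (adjusted p = 0.0419). The ratio of TXNIP to TXN was 0.312, 0.446 and 0.246 in ATO libraries, against 0.202, 0.205 and 0.183 in control libraries. That is 1.65-fold higher without overlap (exact two-sided permutation p = 0.1, adjusted p = 0.2). As with TXNRD1, this ratio is not a separate result from the rise of TXNIP.

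The TXNIP promoter is known for a carbohydrate response element, the site of the glucose-sensing factors MLXIP and MLXIPL with their partner MLX. Written as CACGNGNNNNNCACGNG and read on both strands, it occurs in 16 of the 35116 start sites, or 0.0456%. One of them is the main TXNIP start, shown here because TXNIP and its relative ARRDC4, described below, both rose. The element was known at this promoter before the search, so a match was foreseen and its rarity is no evidence. The stretch is chr1:145996601-145996829, read on the minus strand up to the annotated first exon. The last 21 bases before the RefSeq start lie in that exon and are not printed. The element, in capitals, begins 88 bases before the RefSeq start.
TXNIP: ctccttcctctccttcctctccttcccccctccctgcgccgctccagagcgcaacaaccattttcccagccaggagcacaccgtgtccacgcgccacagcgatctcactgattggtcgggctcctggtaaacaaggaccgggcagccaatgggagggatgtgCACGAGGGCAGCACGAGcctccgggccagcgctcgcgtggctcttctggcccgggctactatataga

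Among the cytosolic peroxiredoxins, PRDX1 (chromosome 1, 45511036 to 45523047) passed the test and PRDX2 (chromosome 19, 12796820 to 12801859) did not. PRDX1 was at 145, 134 and 132 RPKM in ATO replicates, against 89.2, 109 and 116 RPKM in control replicates. The groups were apart, and the lowest value was that of control replicate 1, one of the libraries set apart on the second component. The log2 fold change was 0.39 ± 0.10 (SE, limma adjusted p = 0.0308). The call was lost without ATO replicate 1 (adjusted p = 0.0921), 2 (0.0712) or 3 (0.059) and without control replicate 2 (0.0612). Over the 13 settings the adjusted p ran from 0.00553 to 0.0921. Without each of those libraries the log2 fold change was 0.35 to 0.43. It was smallest, 0.28, without control replicate 1, where the call held (adjusted p = 0.038). Of its exon bases 24.9% are shared with MMACHC on the opposite strand, and the library kit does not mark strand. MMACHC was at 4.63, 7.0 and 5.56 RPKM in ATO cells, against 7.02, 7.57 and 7.03 RPKM in control cells.

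PRDX2 was at 52.4, 47.9 and 56.7 RPKM in ATO libraries, against 49.9, 45.8 and 43.2 RPKM in controls, with overlap between the groups. Its log2 fold change was 0.17, with a 95% interval of -0.02 to 0.37 (limma adjusted p = 0.165). Of the PRDX2 exon bases 14.1% are shared with AC018761.2 on the opposite strand, which has no row among the listed genes. The ratio of PRDX1 to PRDX2 was 2.77, 2.80 and 2.33 in ATO libraries, against 1.79, 2.38 and 2.69 in control libraries (exact two-sided permutation p = 0.3, adjusted p = 0.4). The log2 difference of this ratio was 0.22, and 0.05 to 0.35 without 1 library. With 3 against 3 this exact permutation test cannot go below p = 0.1, so it does not show that the cytosolic pair responded alike.

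PRDX5 (chromosome 11, 64318088 to 64321811), found in mitochondria, peroxisomes and the cytosol, had the smallest SE of the 4 called members. It was at 67.0, 75.5 and 74.7 RPKM in ATO replicates, against 59.3, 61.4 and 55.7 RPKM in control replicates. The groups did not overlap. The log2 fold change was 0.29 ± 0.07 (SE, limma adjusted p = 0.0205). It lost the call without ATO replicate 2 (adjusted p = 0.0656) or 3 (0.0563), without control replicate 3 (0.067) and without both control replicate 1 and ATO replicate 3 (0.0974), within 0.0199 to 0.0974 over the settings.

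PRDX3 and PRDX4 had lower values in every ATO library than in any control, without passing the test. PRDX4 (chromosome X, 23664262 to 23686399), the peroxiredoxin of the endoplasmic reticulum, was at 45.1, 41.2 and 31.5 RPKM in ATO replicates, against 45.3, 57.5 and 53.3 RPKM in control replicates. The groups were separated by the small gap between ATO replicate 1 and control replicate 1. The log2 fold change was -0.40, with a 95% interval of -0.75 to -0.06 before adjustment, and did not pass (limma adjusted p = 0.0818). It was called with limma-voom on recovered reads (0.0241) and without both control replicate 1 and ATO replicate 3 (0.0429), within 0.0241 to 0.208 over the settings. For PRDX4 the adjusted p in the authors' deposited table is 0.015, and 25.3% of the genes with an adjusted p in that table are under 0.05. That deposited adjusted p is also under 0.05 for TXNRD1 (3.19e-15), TXNIP (1.68e-05), PRDX1 (0.00449) and PRDX5 (0.0271). It is over 0.05 for every other member.

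PRDX3 (chromosome 10, 119167703 to 119178833), the mitochondrial enzyme that thioredoxin 2 reduces, was at 65.2, 65.2 and 55.1 RPKM in ATO libraries, against 66.5, 75.3 and 68.0 RPKM in controls. All ATO libraries were below all controls, yet the log2 fold change of -0.18 had a 95% interval of -0.38 to 0.02 (limma adjusted p = 0.17). Without ATO replicate 3, the lowest library for both genes, the log2 fold change was -0.10 for PRDX3 and -0.26 for PRDX4. PRDX6 (chromosome 1, 173477266 to 173488807), which is reduced with glutathione rather than thioredoxin and also acts as a phospholipase, was at 90.7, 92.7 and 86.1 RPKM in ATO libraries, against 84.6, 86.5 and 89.5 RPKM in controls. Its groups overlapped, with a log2 fold change of 0.05 and a 95% interval of -0.08 to 0.17 (limma adjusted p = 0.543).

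**Figure D2:**
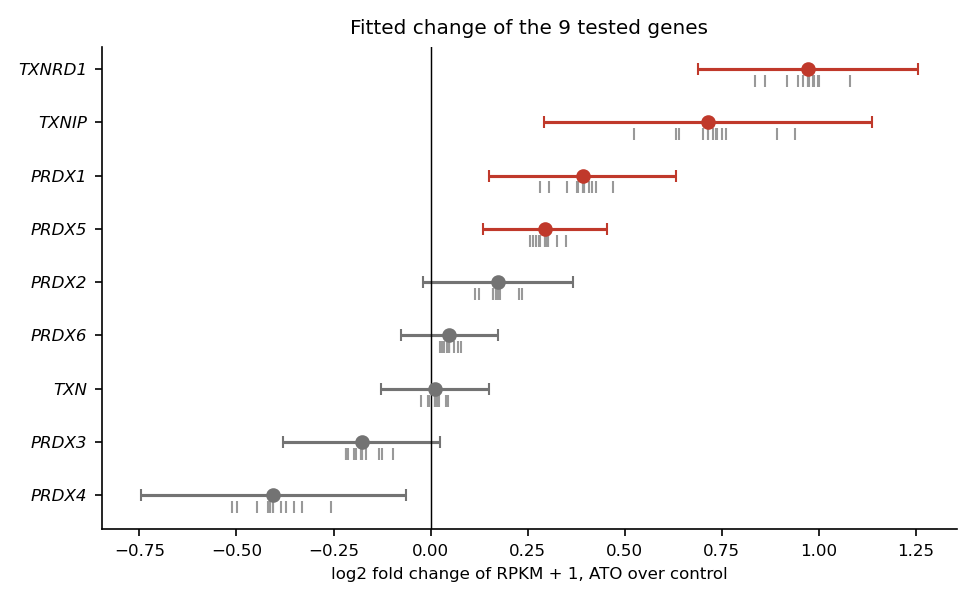
Fitted log2 fold change of RPKM + 1, ATO over control, for the 9 tested genes, with 95% intervals before adjustment (red where called higher, grey where not called) and small ticks for the 13 other settings. TXNRD1 lies farthest to the right at 0.97 and PRDX4 farthest to the left at -0.40, and the ticks of TXN fall on both sides of 0.

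Processed pseudogenes can share reads with peroxiredoxin genes, and 4 such rows were listed, for PRDX2 and PRDX3. PRDX3P2 was the highest, at 9.25, 8.57 and 5.96 RPKM in ATO cells, against 12.2, 10.4 and 13.2 RPKM in control cells. Its log2 fold change was -0.55 (limma adjusted p = 0.0468, called in 3 of the 13 other settings), lower like that of PRDX3. PRDX2P1, PRDX2P3 and PRDX3P1 stayed between 0.840 and 3.82 RPKM in every library and were not called. How reads were divided between these copies and their parent genes is uncertain.

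SRXN1 (chromosome 20, 646615 to 653370) was listed far below the other members and under the filter of a mean of 1 RPKM. Its row held 60, 5 and 9 reads in ATO replicates 1, 2 and 3, against 19, 12 and 3 reads in control replicates. The groups overlapped, and the higher ATO mean (0.412 RPKM, against 0.209 in controls) rests on ATO replicate 1. Control replicate 3 lies at 3 reads, the limit that a count of 0 allows, which covers counting error only. With no filter the log2 fold change was 0.17 (limma adjusted p = 0.639). The ratio of SRXN1 to PRDX1 gave an exact two-sided permutation p = 1 (adjusted p = 1).

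Most exon bases of SRXN1 are shared with another gene. SRXN1 has 2698 exon bases, of which 2292, or 85.0%, also belong to the last exon of AL121758.1 (ENSG00000270299, chromosome 20, 646626 to 675800), an annotated coding gene on the same strand. Only 406 bases belong to SRXN1 alone, and the sources used here do not say how shared bases were counted. If reads in them were assigned to neither gene, RPKM over the whole 2698 bases understates both, and the listed level of SRXN1 may then be far too low. The AL121758.1 row, also under the filter, held 22, 23 and 19 reads in ATO replicates, against 1, 3 and 5 reads in control replicates, with no overlap. With no filter its log2 fold change was 0.37 ± 0.05 (SE, limma adjusted p = 0.00536) on the log2(RPKM + 1) scale, which understates the change of so low a gene, while the authors' deposited table has 2.76 (adjusted p = 0.0017). The 2 rows together held 28 to 82 reads in ATO libraries and 8 to 20 in control libraries. Reads of SRXN1 and of AL121758.1 in the shared bases cannot be told apart.

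**Figure D3:**
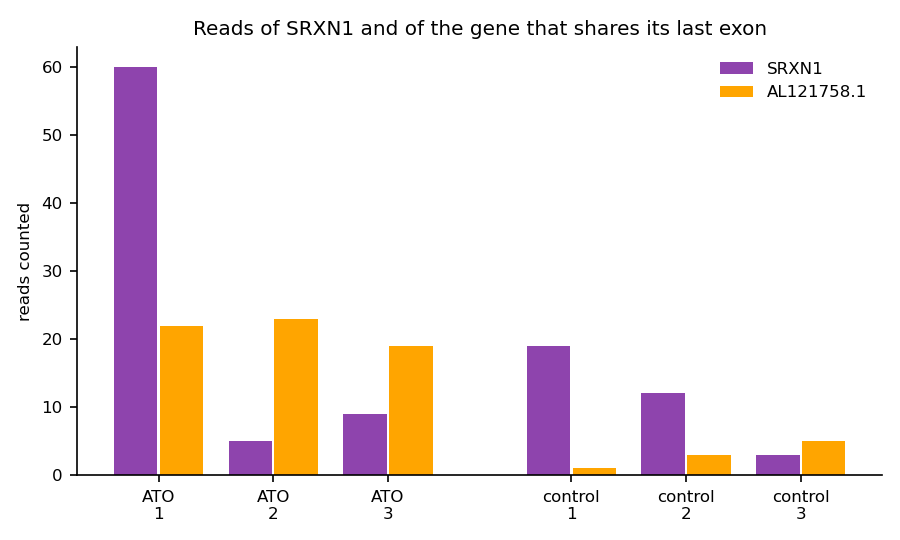
Whole reads recovered for SRXN1 (purple) and for AL121758.1 (orange), which shares 2292 exon bases with it, in each ATO and control library. AL121758.1 has 19 to 23 reads in the ATO libraries and 1 to 5 in the controls, while SRXN1 is high in ATO replicate 1 alone.

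RPKM is scaled to the length of all annotated exons of a gene, from 893 bases for PRDX5 to 6708 for TXNRD1. Transcripts that use only part of those exons are understated, by an amount that was not measured. The order below is therefore one of listed RPKM and may differ from that of transcript abundance. In ATO cells the order was PRDX1 (137 RPKM), TXN (129), TXNRD1 (97.5), PRDX6 (89.8), PRDX5 (72.4), PRDX3 (61.8), PRDX2 (52.4), TXNIP (42.7), PRDX4 (39.3) and, as listed, SRXN1 (0.412). Neighbours overlapped in range for TXNRD1 and PRDX6, PRDX3 and PRDX2, PRDX2 and TXNIP, and TXNIP and PRDX4. In control cells the order was TXN (128 RPKM), PRDX1 (105), PRDX6 (86.8), PRDX3 (69.9), PRDX5 (58.8), PRDX4 (52.0), TXNRD1 (48.7), PRDX2 (46.3), TXNIP (25.1) and, as listed, SRXN1 (0.209). There the ranges overlapped for PRDX1 and PRDX6 and along the run PRDX5, PRDX4, TXNRD1 and PRDX2. By these means TXNRD1 stood above PRDX6, PRDX3, PRDX5 and PRDX4 in ATO cells and below them in control cells. Single libraries differed: TXNRD1 was below PRDX6 in ATO replicate 2 (82.9 against 92.7 RPKM). It was above PRDX4 in control replicate 1 (50.5 against 45.3 RPKM).

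The 6 peroxiredoxins together summed to 465, 457 and 437 RPKM in ATO replicates 1, 2 and 3, against 395, 436 and 426 RPKM in control replicates. The lowest ATO sum and the highest control sum differed by less than 1 RPKM. Within that sum PRDX1 made up 29.4 to 31.2% in ATO libraries and 22.6 to 27.3% in control libraries. PRDX4 made up 7.22 to 9.70% in ATO libraries and 11.5 to 13.2% in controls, and PRDX3 12.6 to 14.3% in ATO libraries and 16.0 to 17.3% in controls. These 3 shares did not overlap between groups, while those of PRDX2, PRDX5 and PRDX6 did. The same 3 genes were already apart in RPKM, so the shares are not a separate result. Of all tested genes 21.9% were apart in RPKM with ATO above and 22.6% with ATO below. PRDX1 thus took a larger share of the summed RPKM in every ATO library than in any control, and PRDX3 and PRDX4 a smaller one. PRDX5, also found in organelles, averaged 16.0% in ATO libraries and 14.1% in controls. The shares of a library sum to a fixed total, so a larger share of PRDX1 lowers the others, and they are given without a test.

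**Figure D4:**
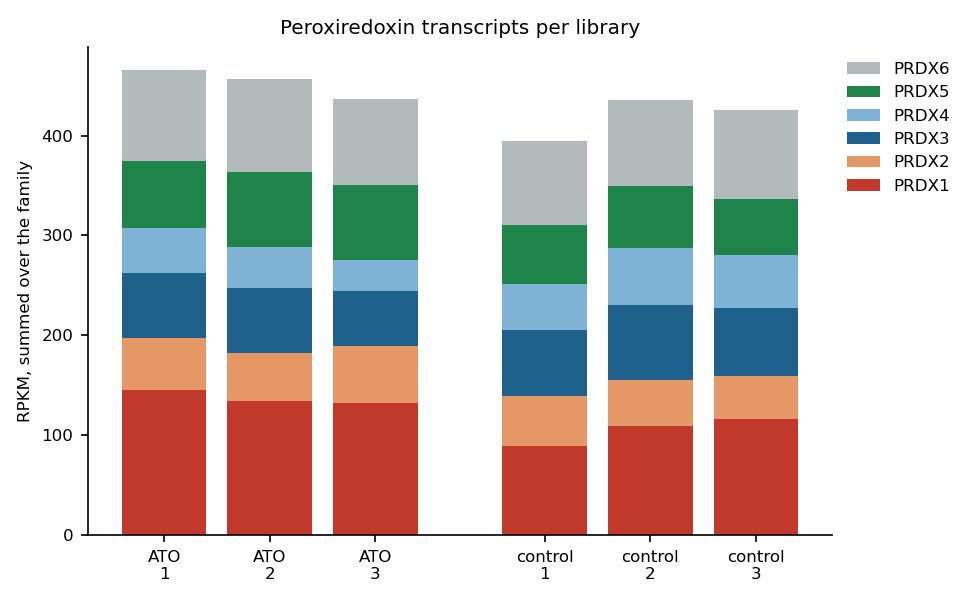
Stacked RPKM of the 6 peroxiredoxins in each library, with ATO libraries on the left and control libraries on the right. The totals are 437 to 465 RPKM in ATO libraries and 395 to 436 RPKM in controls, and the PRDX1 segment at the base is taller in every ATO library.

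The counts of the following lists stand beside the 12.0% of all tested genes called higher and the 13.4% called lower, with a median log2 fold change of -0.0033, and nothing particular to a list is read from them. Of 17 tested relatives of thioredoxin among 18 (other thioredoxins, reductases and glutaredoxins), 2 rose, 1 fell and 14 did not pass, with a median log2 fold change of 0.05. TXNL1, a thioredoxin-like protein bound to the proteasome, rose (8.18, 8.71 and 8.65 RPKM in ATO cells, against 5.71, 5.39 and 6.17 in controls, limma adjusted p = 0.00809). TXNL4A, a spliceosome component, fell (log2 fold change -0.35, limma adjusted p = 0.0116). The calls of TXNL1 and TXNL4A were lost without both control replicate 1 and ATO replicate 3 (0.0507 and 0.0535). The related TXNL4B rose (0.34, adjusted p = 0.042) but lost the call without any 1 of the 6 libraries (0.0663 to 0.125) and with median-ratio factors (0.0707). GLRX5, a mitochondrial glutaredoxin of iron-sulfur assembly, was at -0.25 (adjusted p = 0.0851). The mitochondrial partners of the system, named after their values were seen, did not pass either: TXN2 was at 27.7 ± 0.367 RPKM in ATO cells and 26.3 ± 0.461 RPKM in controls, and TXNRD2 at 3.69 ± 0.573 RPKM in ATO cells and 3.42 ± 0.170 RPKM in controls (SD, n = 3 each).

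Of the 7 tested genes that use or bind thioredoxin, 1 rose and 0 fell (median 0.22). RRM1, the large subunit of ribonucleotide reductase, rose with a log2 fold change of 0.28 (limma adjusted p = 0.0209) and lost the call without ATO replicate 1 (0.0637), without control replicate 1 (0.0536) and without both control replicate 1 and ATO replicate 3 (0.062). RRM2B, a small subunit, was at 0.32 (adjusted p = 0.0587, called without ATO replicate 3 at 0.0272), the methionine sulfoxide reductase MSRB2 at 0.46 (0.0707) and the kinase MAP3K5, which thioredoxin inhibits, at -0.12 (0.312). Of 8 tested enzymes that remove peroxide or superoxide by other means, 1 rose and 0 fell (median -0.08). SOD1, the cytosolic superoxide dismutase, rose (99.7, 99.5 and 104 RPKM in ATO cells, against 66.5, 74.4 and 78.7 RPKM in controls, log2 fold change 0.46, limma adjusted p = 0.00506). Its copper chaperone CCS was at 0.33 (adjusted p = 0.0827), the glutathione peroxidase GPX1 at -0.28 (0.0522) and GPX3 at -0.20 (0.385).

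The relatives and regulators of TXNIP held the largest log2 fold change of these lists. Of 6 tested genes 2 rose and 1 fell (median -0.0046). ARRDC4, the alpha-arrestin closest to TXNIP and like it a target of the MLX partners, was at 7.63, 9.18 and 8.37 RPKM in ATO cells, against 2.30, 2.41 and 2.30 RPKM in control cells. The groups lay far apart, with a log2 fold change of 1.49 ± 0.11 (SE, limma adjusted p = 0.000408). ARRDC3 rose as well (4.97, 5.33 and 4.45 RPKM in ATO cells, against 2.41, 2.20 and 2.70 RPKM in controls, log2 fold change 0.78, adjusted p = 0.00495). MLX fell (12.4, 12.4 and 13.4 RPKM in ATO cells, against 20.8, 20.3 and 18.7 RPKM in controls, log2 fold change -0.61, adjusted p = 0.00186). These 3 calls held in all 13 other settings. The size of the change depended on the pseudocount, and over the settings the log2 fold change ran from 0.87 to 1.84 for ARRDC4, from 0.42 to 1.01 for ARRDC3 and from -0.65 to -0.49 for MLX. ARRDC1 was at -0.10 (adjusted p = 0.357). The carbohydrate response element letters were not in the 250-base window of ARRDC4 or ARRDC3. That says only that this one spelling is absent from the windows.

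TXNRD1 is made only if selenocysteine can be inserted, so the genes of that process were followed too. Of 6 tested, 1 rose and 1 fell (median 0.09). SCLY, which recovers selenium from selenocysteine, fell (1.71, 1.82 and 1.91 RPKM in ATO cells, against 3.88, 4.51 and 3.74 RPKM in controls, log2 fold change -0.84, and -1.15 to -0.41 over the settings, limma adjusted p = 0.00395). PSTK, the kinase that acts on the selenocysteine tRNA, rose (0.57, adjusted p = 0.0247), but lost the call without any 1 ATO library and without control replicate 2 or 3 (0.054 to 0.0711). The elongation factor EEFSEC was at -0.26 (adjusted p = 0.0769, called without control replicate 1 at 0.0328), and SEPHS2, which makes the selenium donor, at 0.23 (0.0787, called without ATO replicate 2 at 0.033).

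**Figure D5:**
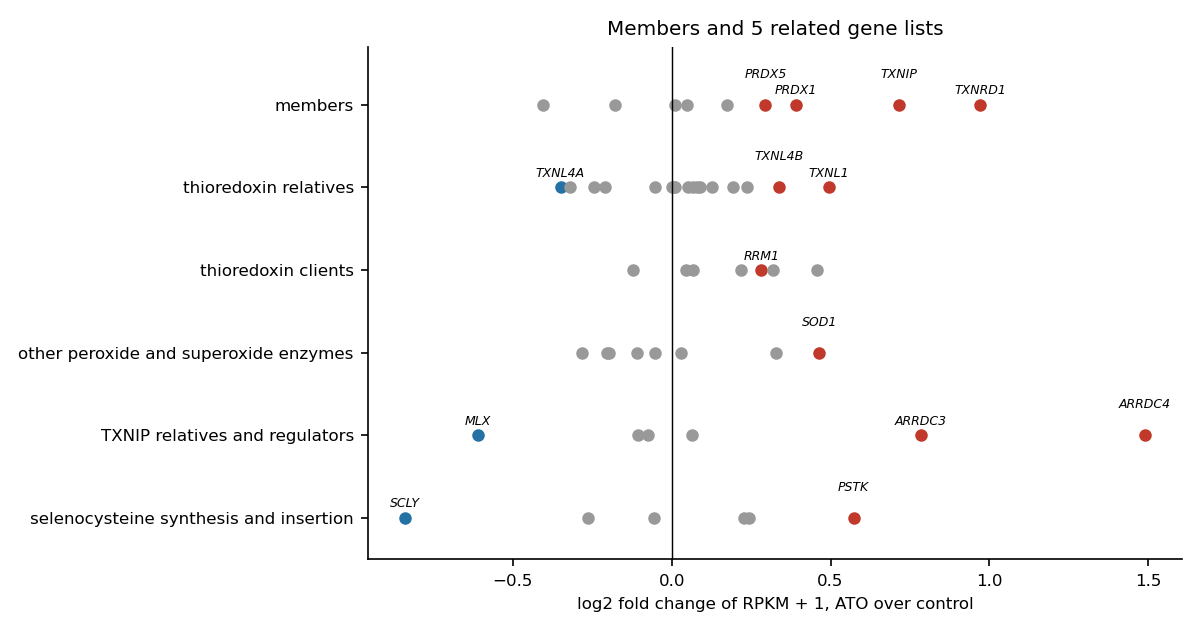
Fitted log2 fold change of RPKM + 1, ATO over control, of each tested gene in the 10-gene set and in 5 related lists (red called higher, blue called lower, grey not called). ARRDC4 at 1.49 lies farthest right and SCLY at -0.84 farthest left.

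For the 2 members with the smallest p-values, the coding genes with the most similar profile were found by the root mean square distance of log2(RPKM + 1), centred on the control mean, over the 6 libraries. Among the nearest to TXNRD1 were RHBDD2 (0.05) and FECH (0.0628), FECH being the enzyme that inserts iron to form haem. RHBDD2 was at 13.0 ± 2.0 RPKM in ATO cells and 6.18 ± 0.360 RPKM in controls (SD, n = 3 each). Nearest to PRDX5 were LZTFL1 (0.0232), ZNF281 (0.033) and PAPOLG (0.0399). The profiles share the same libraries and the same treatment step, so the distance is a description.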

How the data were processed

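The authors deposited 1 table with RPKM of 23858 genes in 6 libraries and their own comparison. Tools named in the submitters' processing notes are HTSeq, DESeq2 and HISAT2 2.1.0, with the build hg38 and no parameters. Per the file headers duplicate reads were removed. Per the labels' protocols total RNA was depleted of ribosomal RNA. The deposited signal column, the mean over the libraries of normalized reads, served only to settle exon lengths. The authors' log2 fold changes, test score and p-values in the deposited table were used in no test.

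Whole reads were recovered from RPKM with exon lengths of GENCODE 29 (GRCh38) and 1 total per library. All 6 values were whole within 0.01 reads for 93.6% of annotated genes, and for 100% of genes with lengths settled by the deposited mean. The main test was limma (version 3.58.1, in R 4.3.3) on log2(RPKM + 1) with a mean trend and treatment as its single term. It ran over the 16803 genes whose mean over the libraries reached 1 RPKM (7055 set aside). Benjamini-Hochberg adjustment covered all of them, and a gene was called at an adjusted p under 0.05. Ratios were tested by exact permutation, two-sided, over 20 assignments. Chi-square per degree of freedom between libraries of a group was 4.86 to 11.7, above sampling noise in every pair.

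By rule, named were all members, up to 4 genes per list with the smallest p-values, pseudogene and overlapping rows, and up to 3 nearest profiles of 2 members. TXN2 and TXNRD2 were named outside it. A few marker and profile results are not reported here. The members and lists were chosen with earlier results of these data known. Other settings were median-ratio factors, pseudocounts of 0.1 and 5, no filter, limma-voom on recovered reads, the replicate number as a block and leaving out each library. Leaving out both control replicate 1 and ATO replicate 3 was added after seeing the data.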

Additional observations from a re-analysis of the deposited data

How the results depend on the processing

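At 19361333 to 22609019 reads per library and 3 libraries per group, only TXNRD1 among the members was called in all 13 other settings. Members called higher were 4, and 2 to 3 without 1 library. Members called lower were 0, with 1 at an unadjusted limma p under 0.05, and 1 with limma-voom or without both control replicate 1 and ATO replicate 3, in each case PRDX4. Whether the replicate numbers pair the libraries is not known. Same-numbered deviations correlated at -0.0852, 0.148 and -0.0829. ATO replicates 1 and 3 correlated best with another number and ATO replicate 2 with its own. Such weak correlations neither show a pairing nor exclude it. With the replicate number as a block 3 members were called higher (PRDX1 lost, adjusted p = 0.0743), and 1 thioredoxin relative, 0 thioredoxin clients and 0 selenocysteine genes.

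Without 1 library, 1 thioredoxin relative, 0 to 2 clients and 0 to 1 selenocysteine genes were called higher, and 1 to 2 selenocysteine genes lower. Over all genes the calls were 1302 to 1511 higher and 1419 to 1906 lower, and 1202 and 1481 without both libraries, against 2021 and 2252. Without both libraries 0 thioredoxin relatives were called in either direction, with 0 clients and 0 selenocysteine genes higher. With limma-voom 3 clients and 2 selenocysteine genes were higher and 1 other peroxide enzyme, GPX1, lower. With median-ratio factors 1 thioredoxin relative was higher. The sign of the TXN log2 fold change, 0.01 and between -0.024 and 0.044 without 1 library, turned with median-ratio factors (-0.0033) and without control replicate 3 (-0.024), ATO replicate 1 (-0.0039) or ATO replicate 3 (-0.0075). The log2 ratio of SRXN1 to PRDX1, 0.19 and between -0.81 and 0.89 without 1 library, turned without ATO replicate 1 (-0.81), without control replicate 3 (-0.73) and with 1 RPKM added to both (-0.22). The cause of these changes was not tested.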
